A study of Homo sapiens with 10 samples.

Results

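The mitosis and G2/M genes are 60 genes whose products drive the cell from late interphase through chromosome segregation to cytokinesis. The rule that chose them was a list of gene names, drawn up with earlier results of these data known. All 60 of 60 were found by gene symbol among the 26256 genes in the table of untreated cells and among the 55736 genes in the table of the Nutlin-3a experiment. MCF10A is a line of human breast epithelial cells that is not transformed. RNA-seq of poly(A)-selected RNA was made from untreated parental MCF10A cells, from G12V cells, which are MCF10A cells given oncogenic HRas by a lentivirus, from parental MCF10A cells treated with 10 µM Nutlin-3a for 4 h and from parental cells given the vehicle DMSO for 4 h. The untreated groups had 2 libraries each and the Nutlin-3a and DMSO groups 3 each. G12V cells had been transduced along with a GFP vector used to follow transduction and were selected with hygromycin. The authors report that these cells first stopped growing, resumed growth after a few weeks and then proliferated faster than MCF10A. G12V cells differ from MCF10A by the whole procedure as well as by HRas. The labels call the replicates biological without saying whether they were separate cultures, so p-values measure the spread between these libraries.

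Entry into mitosis is driven by the kinase CDK1 with cyclin B or cyclin A, which is held back by inhibitory kinases and released by CDC25 phosphatases. The transcripts of this machinery accumulate together in late interphase, under the DREAM and MuvB-FOXM1 complexes, which are recruited to promoters through a CHR element and often a nearby CCAAT box. Nutlin-3a blocks the binding of MDM2 to p53 and so stabilizes p53, which raises CDKN1A, the inhibitor p21, through which DREAM can repress these promoters. In bulk RNA, fewer cells in G2 and mitosis and less RNA of these genes per cell cannot be told apart.

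The promoters of the 5 members with the lowest log2 fold changes with Nutlin-3a that the RefSeq table held, and of 2 contrasting members, are shown because the CHR element and the CCAAT box are the sequence features that most of the 60 genes share. The 250 bases before the transcription start are printed from 5′ to 3′ on the strand of the gene, from RefSeq on GRCh38.p14, whereas the deposited counts use hg19. Capitals mark each CHR (TTTGAA, which reads TTCAAA on the other strand, or its variant TTCGAA) and each CCAAT box (CCAAT, which reads ATTGG on the other strand). CCNB1 and PTTG1 are given beside the others because their windows hold CCAAT boxes and neither of these CHR spellings. Other spellings of the CHR were not searched. This pair does not stand for all members without a match. Their median log2 fold change with Nutlin-3a was -0.31, against -0.27 in members with a match.
HJURP promoter, chr2:233854536-233854785, minus strand: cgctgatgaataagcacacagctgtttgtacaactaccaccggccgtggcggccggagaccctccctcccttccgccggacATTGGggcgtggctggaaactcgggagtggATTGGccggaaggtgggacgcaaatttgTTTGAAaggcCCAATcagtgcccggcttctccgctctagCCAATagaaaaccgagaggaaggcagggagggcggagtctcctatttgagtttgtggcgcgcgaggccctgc
CCNF promoter, chr16:2429197-2429446, plus strand: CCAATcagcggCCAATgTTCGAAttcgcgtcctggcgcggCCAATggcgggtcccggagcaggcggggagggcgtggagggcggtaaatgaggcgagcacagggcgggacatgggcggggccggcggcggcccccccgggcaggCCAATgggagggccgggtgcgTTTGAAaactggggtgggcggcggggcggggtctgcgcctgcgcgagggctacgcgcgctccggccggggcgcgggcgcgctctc
PLK1 promoter, chr16:23678639-23678888, plus strand: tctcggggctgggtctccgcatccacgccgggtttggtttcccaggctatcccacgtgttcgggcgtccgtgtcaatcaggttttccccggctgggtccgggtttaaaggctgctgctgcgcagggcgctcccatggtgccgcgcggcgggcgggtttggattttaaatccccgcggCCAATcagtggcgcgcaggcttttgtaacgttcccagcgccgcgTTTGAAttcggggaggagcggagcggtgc
CENPA promoter, chr2:26785806-26786055, plus strand: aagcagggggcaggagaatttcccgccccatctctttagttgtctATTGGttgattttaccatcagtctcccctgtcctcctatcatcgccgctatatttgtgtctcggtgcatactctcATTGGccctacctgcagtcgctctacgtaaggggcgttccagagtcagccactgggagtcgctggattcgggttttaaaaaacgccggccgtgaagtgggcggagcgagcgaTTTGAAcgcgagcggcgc
KIF23 promoter, chr15:69414099-69414348, plus strand: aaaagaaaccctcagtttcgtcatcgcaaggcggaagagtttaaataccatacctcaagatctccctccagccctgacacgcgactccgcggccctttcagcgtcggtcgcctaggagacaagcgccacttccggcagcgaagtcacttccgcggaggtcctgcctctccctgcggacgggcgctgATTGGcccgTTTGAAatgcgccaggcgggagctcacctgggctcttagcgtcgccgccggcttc
CCNB1 promoter, chr5:69166900-69167149, plus strand: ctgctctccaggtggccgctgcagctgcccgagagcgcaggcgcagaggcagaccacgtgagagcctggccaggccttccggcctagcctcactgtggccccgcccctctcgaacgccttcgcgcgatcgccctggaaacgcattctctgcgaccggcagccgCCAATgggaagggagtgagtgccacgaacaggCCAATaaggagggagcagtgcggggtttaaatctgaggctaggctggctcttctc
PTTG1 promoter, chr5:160421605-160421854, plus strand: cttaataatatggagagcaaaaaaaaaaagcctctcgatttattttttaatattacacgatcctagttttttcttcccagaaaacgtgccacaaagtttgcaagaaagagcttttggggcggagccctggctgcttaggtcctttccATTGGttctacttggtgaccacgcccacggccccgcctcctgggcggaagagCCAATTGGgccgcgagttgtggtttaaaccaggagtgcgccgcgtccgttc

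Of the 60 genes, 50 had a promoter in the RefSeq table, with SGOL1 found under its present symbol SGO1. AURKA, BIRC5, CDCA2, CENPM, FOXM1, PKMYT1, TPX2, TTK, UBE2C and WEE1 were not matched. The window ran from 250 bases before to 50 bases after the start and was searched on both strands. A gene was counted if any of its promoters held the match. By this count 39 of the 50 genes (78.0%) held a CHR, against 19.5% of all 27305 genes with a promoter. Among the 9427 matched genes that were tested in the Nutlin-3a experiment it was 15.6%. A CCAAT box was found in 40 of the 50 (80%), against 39.7% of all genes with a promoter and 43.5% of the tested genes. A CHR together with a CCAAT box was found in 32 (64.0%), against 7.85% and 6.64%. An E2F site was taken as any of the spellings GCGGGAA and, shifted by a base and able to overlap it, GGCGGGA and, as a further variant, GCGCGAA. It was found in 20 of the 50 (40.0%), against 22.6% of all genes with a promoter and 38.2% of the tested genes. The CHR matches lay close to the start, with 40 of 57 matches in the 50 genes (70.2%) within 50 bases of it, against 27.3% of the 6754 matches in all promoters. In the printed sequences the CHR of CENPA began 18 bases before the start, that of PLK1 29 bases before it and that of KIF23 55 bases before it, while that of HJURP began 111 bases before it and those of CCNF 233 and 85 bases before it, with a CCAAT box ending 69 bases before the start in PLK1 and 60 bases before it in KIF23. A match is a stretch of letters and was not tested for binding.

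Library totals were 21538593 to 23683975 counts in the untreated table and 15453226 to 17378734 in the Nutlin-3a experiment. Levels are in CPM, the count of a gene relative to a library size scaled by edgeR's TMM method, and they are compared between groups for 1 gene at a time, not between genes. None of the 60 genes was lost to the filter on low counts, and the smallest count of any of them in any library was 184. HRAS was higher in G12V than in MCF10A cells, by 3.05 on the log2 scale, and CDKN1A and MDM2, both p53 targets, were higher with Nutlin-3a, by 2.16 and 2.54, as the labels say. Epithelial markers summed to 4980 to 7508 CPM in the 6 libraries of the Nutlin-3a experiment and to 7142 to 10398 CPM in MCF10A, but to 1720 to 2568 CPM in G12V cells, where 5 of 8 were called lower and KRT14 had at most 3 counts. The leukocyte list summed to 9.26 to 15 CPM in the Nutlin-3a experiment and to 23.5 to 42.1 CPM in the untreated cells, where PTPRC and CD3E had at most 3 counts, CD14 was at 18.0 to 39.6 CPM and CSF1R was called lower in G12V cells. The fibroblast and endothelial lists summed to at most 148 and 33.0 CPM. Of the fibroblast list, DCN differed between replicates of the Nutlin-3a experiment. It was at 12.9 and 14.1 CPM in the libraries numbered 1 and at 94.5 to 137 CPM in the others. The part of the lower epithelial markers in the G12V results was not tested.

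Nutlin-3a was followed after 4 h by slightly lower levels of nearly the whole list. Of the 60 genes, 58 had a log2 fold change below 0 against DMSO, where 48.2% of all 13529 genes tested did, and only PTTG1 and CENPM lay above 0. The median log2 fold change of the 60 genes was -0.29, or 0.819-fold, against 0.01 over all genes tested. The values ran from -0.97 for HJURP to 0.09 for PTTG1, and 37 of the 60 lay below -0.25, where 8.15% of all genes did. In 29 of the 60 genes all 3 Nutlin-3a libraries were below all 3 DMSO libraries, against 4.38% of all genes tested, and no member had the opposite order, against 3.7%.

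Differential expression (DE) was called by edgeR's quasi-likelihood test where the p adjusted over all genes tested was under 0.05 and the log2 fold change was beyond 0.5 in either direction. By this rule 1 of the 60 genes, HJURP, was called lower, against 0.0148% of all genes tested, which is 2 genes, the other being ZNF367, named here after its values were seen. No member was called higher, against 0.155% of all genes, and at an unadjusted p under 0.05 the same test gave 27 members lower (1.83% of all genes) and 0 higher (1.6%). In this experiment libraries that share a replicate number were taken as pairs. With the replicate number as a block, 12 of the 60 genes were called lower, against 0.517% of all genes tested, and 17 were lower at an adjusted p under 0.05 alone, against 0.902%. At an unadjusted p under 0.05 with the block 39 were lower, against 6.7%. With the block 0 members were higher by either rule, against 0.702% and 0.939% of all genes. Leaving out any 1 library left 0 members called without the block, while with the block, where its partner then carries no difference, it left 8 to 17. Leaving out libraries with the block was added after the data were seen.

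**Figure D1:**
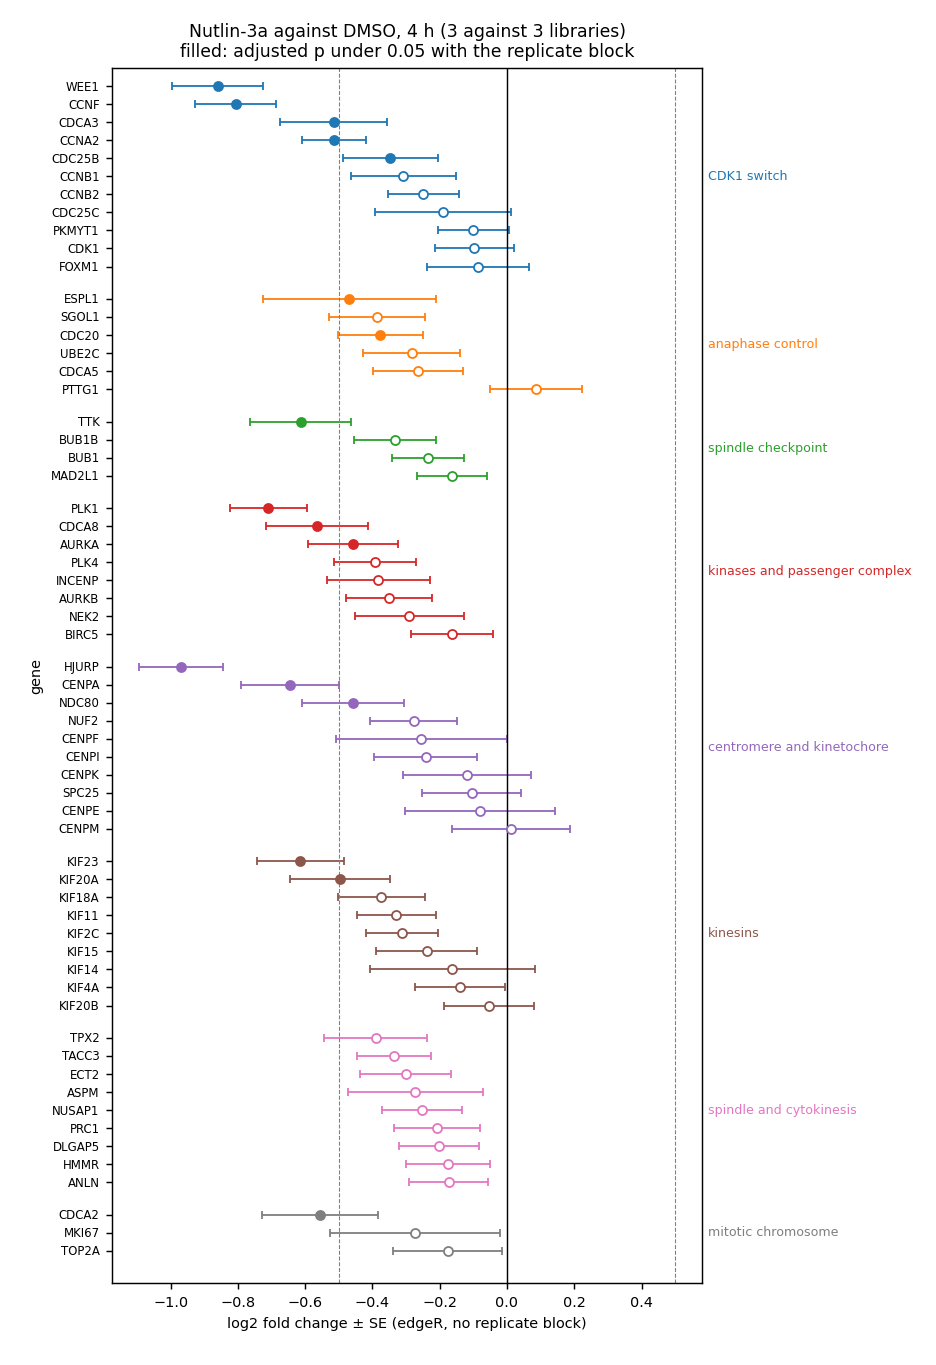
Log2 fold change of each of the 60 genes between 3 Nutlin-3a and 3 DMSO libraries (horizontal axis, points with bars of 1 SE, fit without the block), grouped and coloured by role, with filled points for an adjusted p under 0.05 with the replicate block and dashed lines at -0.5 and 0.5. Nearly all points lie left of 0, and filled points are found in 7 of the 8 roles.

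The list was lower in each pair of libraries, but not by the same amount. The median difference of the 60 genes in log2(CPM + 0.5), where 0.5 is a pseudocount, was -0.28 between the libraries numbered 1, with 50 of the 60 genes lower. Between the libraries numbered 2 it was -0.23, with 52 lower, and between those numbered 3 it was -0.48, with 58 lower. The all-gene medians of the same differences were -0.02, 0.00060 and -0.00066. Within all 3 pairs 42 of the 60 genes were lower, against 17.7% of all genes tested, and 0 were higher, against 15%. Summed over the list, the level was 6422, 7215 and 7040 CPM in the DMSO libraries and 5809, 6195 and 4899 CPM in the Nutlin-3a libraries. Every Nutlin-3a library had a lower sum than every DMSO library, and Nutlin-3a replicate 3 had the lowest. The deviation of the 60 genes from their means was also correlated with transcript length across the genes, differently in each library, from an r of -0.47 in Nutlin-3a replicate 3 to 0.42 in Nutlin-3a replicate 1, whereas their log2 fold change was nearly uncorrelated with length (r = -0.08, 60 genes, which share the same libraries).

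**Figure D2:**
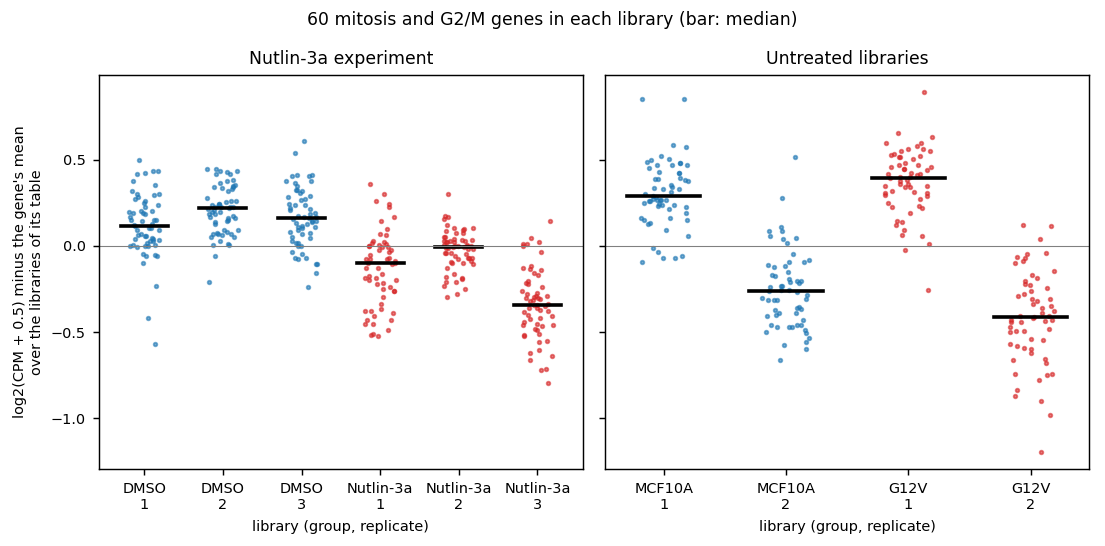
Level of each of the 60 genes in each library as log2(CPM + 0.5) minus the mean of that gene over the libraries of its own table (vertical axis), for the Nutlin-3a experiment at left and the untreated cells at right, with black bars at the median. The Nutlin-3a libraries sit below the DMSO libraries, while in the untreated cells both libraries numbered 1 sit above both libraries numbered 2.

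Genes of the centromere and kinetochore, where the chromosome is joined to the spindle, held the lowest log2 fold change of the list and also some of the smallest. HJURP, the chaperone that deposits the centromeric histone, lies on chromosome 2 from 234745349 to 234763212 (hg19). It had 77.6, 77.6 and 88.4 CPM in DMSO and 41.0, 47.0 and 36.4 CPM with Nutlin-3a. Every treated library was below every DMSO library. Its log2 fold change was -0.97 (SE 0.12, edgeR adjusted p = 0.0303), a level 48.9% lower, with an adjusted p of 0.000301 with the block. Without any 1 of the 6 libraries its adjusted p was 0.0777 to 0.165, so the call without the block was lost on leaving out each of them, with log2 fold changes of -1.07 to -0.88. With all libraries it was called under every other setting tried, at adjusted p-values of 3.78e-08 to 0.0327 in edgeR and DESeq2.

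The histone that HJURP carries was lower too. CENPA, which replaces histone H3 at centromeres, lies on chromosome 2 from 26987157 to 27017457. It had 35.6, 38.2 and 36.3 CPM in DMSO and 21.2, 28.4 and 20.8 CPM with Nutlin-3a, without overlap between the groups. Its log2 fold change of -0.64 (SE 0.14) passed with the block (edgeR adjusted p = 0.00519) and not without it (0.339). Without the block it also passed with DESeq2, edgeR's exact test or no filter, at adjusted p-values of 0.0192 to 0.0407. In the annotation of this table the CENPA interval overlaps SLC35F6 on the same strand, so reads there could have been assigned to either gene or to neither. NDC80, a core kinetochore subunit that binds microtubules, had a log2 fold change of -0.46 and an adjusted p of 0.0169 in edgeR's test with the block, with no overlap between the groups. Its partners NUF2, at -0.28, and SPC25, at -0.10, were not called. Neither were CENPF (-0.25), CENPI (-0.24), CENPK (-0.12), the kinetochore motor CENPE (-0.08) and CENPM (0.01), and the median of the 10 genes of this role was -0.25.

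Around the CDK1 switch all 11 genes had negative log2 fold changes, with a median of -0.31, and the largest were not those of CDK1 and its B-type cyclins. WEE1, the kinase that holds CDK1 inactive, lies on chromosome 11 from 9595228 to 9610754. Its level was 52.1, 52.5 and 51.3 CPM in DMSO and 26.5, 34.2 and 25.1 CPM with Nutlin-3a. The DMSO libraries differed by little, and all treated libraries lay well below them. The log2 fold change was -0.86 (SE 0.14, edgeR adjusted p = 0.0806, 0.000457 with the block). CCNF, cyclin F, which selects substrates for an SCF ubiquitin ligase and does not activate a CDK, lies on chromosome 16 from 2479395 to 2508855. It had 71.9, 74.5 and 73.6 CPM in DMSO and 38.4, 48.7 and 38.6 CPM with Nutlin-3a. As for WEE1, replicate 2 was the highest of the treated libraries and the groups did not overlap. The log2 fold change of CCNF was -0.81 (SE 0.12, edgeR adjusted p = 0.065, 0.000350 with the block).

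CDK1 itself, on chromosome 10 from 62538212 to 62554610, had 179, 175 and 188 CPM in DMSO and 145, 186 and 176 CPM with Nutlin-3a. These groups overlapped, and only treated replicate 1 stood below all DMSO libraries. The log2 fold change of -0.10 (SE 0.12, edgeR adjusted p = 0.702 with the block) became 0.0024 without that library. CCNB1, cyclin B1, on chromosome 5 from 68462837 to 68474072, had 242, 278 and 297 CPM in DMSO and 177, 261 and 222 CPM with Nutlin-3a. It was lower in each pair, but the groups overlapped, and its log2 fold change of -0.31 (SE 0.16) was not called (edgeR adjusted p = 0.0903 with the block). CCNB2, cyclin B2, had 75.7, 71.7 and 64.6 CPM in DMSO and 62.4, 60.4 and 55.7 CPM with Nutlin-3a. Its groups did not overlap, by a small margin, and its log2 fold change of -0.25 (SE 0.11) was not called either (edgeR adjusted p = 0.172 with the block). The A-type cyclin CCNA2, which serves both S phase and mitotic entry, was lower at a log2 fold change of -0.51 and called with the block (edgeR adjusted p = 0.00522). CCNA2 overlaps EXOSC9 on the opposite strand, and it is not stated whether the counting used strand.

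FOXM1, the transcription factor that activates this programme in G2, lies on chromosome 12 from 2966849 to 2986206. It had 102, 95.8 and 89.1 CPM in DMSO and 108, 91.2 and 71.6 CPM with Nutlin-3a. The treated libraries spanned a wider range than the DMSO libraries on both sides, with replicate 1 the highest and replicate 3 the lowest of the 6. The log2 fold change of FOXM1 was -0.09 (SE 0.15, edgeR adjusted p = 0.722 with the block), and without Nutlin-3a replicate 3 it was 0.05. Of the remaining genes of the switch, the phosphatase CDC25B (-0.35) was lower at an adjusted p of 0.0349 with the block and CDCA3 (-0.52), which marks WEE1 for degradation, at 0.0172 in edgeR's test. The phosphatase CDC25C (-0.19) and PKMYT1 (-0.10), the membrane-bound kinase that inhibits CDK1 beside WEE1, were not called. CDC25C, with at most 433 counts in a library, overlaps FAM53C, with at most 2280, on the opposite strand. PKMYT1 overlaps PAQR4 and FOXM1 overlaps ITFG2, also on the opposite strand.

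Among the mitotic kinases and the chromosomal passenger complex all 8 genes had negative log2 fold changes, and the median of -0.39 was the lowest of the 8 roles. PLK1, the kinase of mitotic entry and spindle assembly, lies on chromosome 16 from 23688977 to 23701687. It had 155, 176 and 175 CPM in DMSO and 100, 115 and 93.6 CPM with Nutlin-3a, with a wide gap between the groups. The log2 fold change was -0.71 (SE 0.12, edgeR adjusted p = 0.0893, 0.000530 with the block). CDCA8, the passenger subunit borealin, had a log2 fold change of -0.57 and AURKA, the spindle pole kinase, one of -0.46, and both passed with the block at adjusted p-values of 0.00437 and 0.0182 in edgeR's test. PLK4, which starts centriole duplication, had a log2 fold change of -0.39 and the passenger subunit INCENP one of -0.38. For AURKB, the passenger kinase, it was -0.35 and for NEK2, which separates centrosomes, it was -0.29. BIRC5, survivin, had the smallest difference of the role at -0.16, and these 5 genes were not called.

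In the control of anaphase 5 of 6 genes had negative log2 fold changes, and securin had the one positive value. PTTG1, securin, which holds separase inactive until anaphase, lies on chromosome 5 from 159848829 to 159855748. It had 129, 145 and 132 CPM in DMSO and 122, 171 and 139 CPM with Nutlin-3a. The groups overlapped, and treated replicate 2 was the highest. The log2 fold change of 0.09 (SE 0.14, edgeR adjusted p = 0.794 with the block) was -0.06 without that library. PTTG1 has near-identical copies elsewhere in the genome. Whether its reads were shared with them was not tested. ESPL1, separase, was at -0.47 and CDC20, which activates the anaphase-promoting complex, at -0.38, and with the block both passed the adjusted p but not the fold threshold (0.0354 and 0.0196 in edgeR's test). SGOL1, which protects centromeric cohesin, was at -0.39, UBE2C, the ubiquitin-conjugating enzyme of the anaphase-promoting complex, at -0.28, and CDCA5, sororin, at -0.26, and none of them was called. The median of these 6 genes was -0.33.

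All 4 spindle checkpoint genes had negative log2 fold changes, with a median of -0.28. TTK, the kinase MPS1 that starts checkpoint signalling at kinetochores, was at -0.61 and was called with the block (edgeR adjusted p = 0.00562). BUB1B at -0.33, BUB1 at -0.23 and MAD2L1 at -0.16 were not called.

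The 9 kinesins, proteins of the microtubule motor family, had negative log2 fold changes with a median of -0.31. KIF23, a motor of the central spindle needed for cytokinesis, lies on chromosome 15 from 69706585 to 69740764. It had 110, 135 and 124 CPM in DMSO and 74.5, 92.7 and 74.0 CPM with Nutlin-3a. No treated library reached the lowest DMSO library. For KIF23 the log2 fold change was -0.61 (SE 0.13, edgeR adjusted p = 0.275, 0.00133 with the block). KIF20A, which brings the passenger complex to the central spindle, was at -0.4966 without the block and was called with it (edgeR adjusted p = 0.0169), although it overlaps CDC23 on the opposite strand. The other kinesins, KIF18A (-0.37), KIF11 (-0.33), KIF2C (-0.31), KIF15 (-0.24), KIF14 (-0.16), KIF4A (-0.14) and KIF20B (-0.05), were not called.

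The 9 spindle assembly and cytokinesis genes lay between -0.39 and -0.17 with a median of -0.25, and 0 of them was called with the block. They were TPX2, which activates AURKA on the spindle, TACC3, ECT2, ASPM, NUSAP1, PRC1, DLGAP5, HMMR and ANLN. In TACC3, ECT2 and NUSAP1 the groups did not overlap. Of the 3 genes of the mitotic chromosome, CDCA2, which recruits a phosphatase to chromatin at mitotic exit, had a log2 fold change of -0.56 and was called with the block (edgeR adjusted p = 0.0192), with overlapping groups. TOP2A, the topoisomerase that untangles sister chromatids, had 457, 533 and 478 CPM in DMSO and 457, 509 and 333 CPM with Nutlin-3a. Only treated replicate 3 stood apart, and the log2 fold change of -0.18 (SE 0.16) was -0.02 without that library. MKI67, the proliferation marker Ki-67 that coats mitotic chromosomes, had 292, 526 and 503 CPM in DMSO and 431, 396 and 265 CPM with Nutlin-3a. The pairs ran in opposite directions, higher with Nutlin-3a in the libraries numbered 1 and lower in the others, and its log2 fold change of -0.27 (SE 0.25) was not called.

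**Figure D3:**
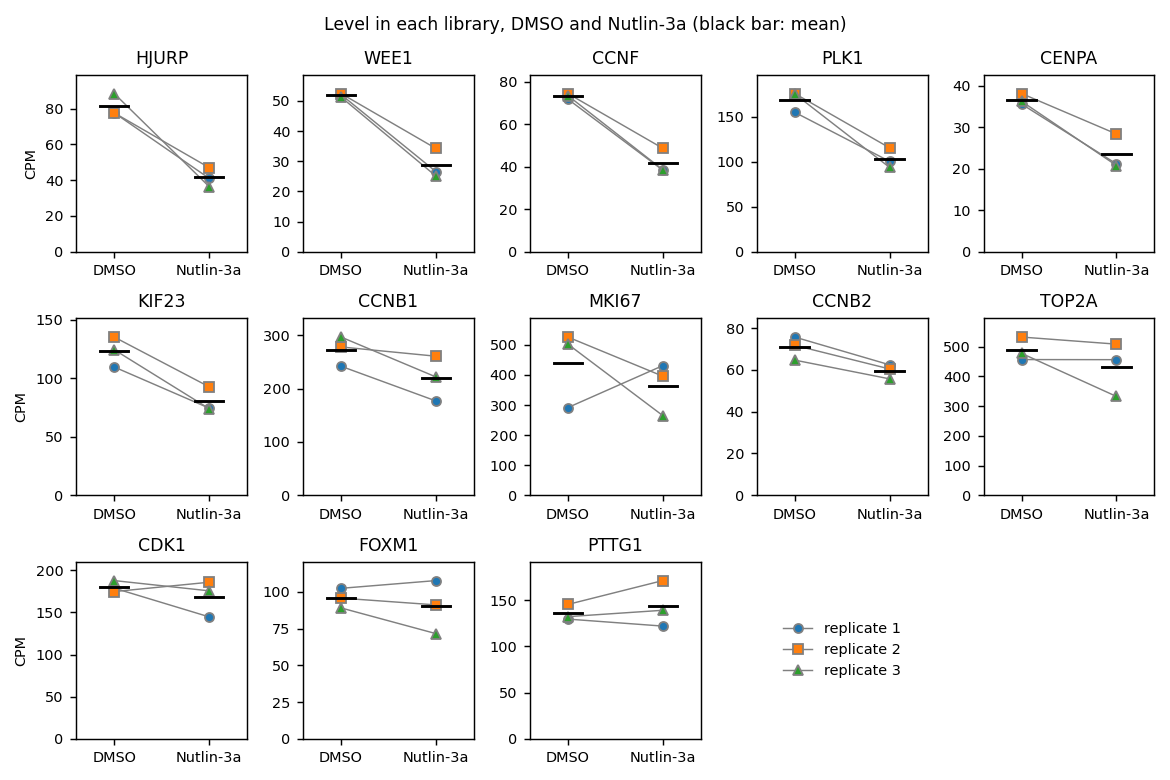
Level in CPM (vertical axes, from 0) of 13 of the genes in each DMSO and Nutlin-3a library, with lines joining libraries of the same replicate number and black bars at the mean of 3. HJURP, WEE1, CCNF, PLK1, CENPA and KIF23 are lower in all 3 pairs with no overlap, while MKI67, CDK1, FOXM1 and PTTG1 change in different directions between pairs.

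Members with and without a match to the CHR spellings searched had similar medians. The median log2 fold change with Nutlin-3a was -0.27 in the 39 genes with a CHR and -0.31 in the other matched genes. Over the tested genes with both a CHR and a CCAAT box it was -0.03, against 0.01 in those without the pair.

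Other genes of the same machinery, taken from lists of known complexes, had medians closer to 0. Members and lists were chosen with earlier results of these data known, so this contrast cannot show that lower levels are particular to the members. The 28 further kinetochore and checkpoint genes had a median log2 fold change of -0.12 with Nutlin-3a, and 21 of them were below 0. With the block, CENPL and SKA1, both at -0.47, were lower at an adjusted p under 0.05 (0.0231 and 0.0172 in edgeR's test). Of the 8 condensin subunits, which compact chromosomes, NCAPH at -0.47 passed in the same way (adjusted p = 0.0187), and the median was -0.03. The 15 subunits of the anaphase-promoting complex had a median of -0.01 and 0 called with the block. Among the 12 subunits of DREAM and the MuvB complexes LIN9 was lower at -0.50 (edgeR adjusted p = 0.0122 with the block), and the median was -0.08. The 30 genes of the G1/S transition and replication had a median of -0.22 with 26 below 0. In 19 of the 30 every Nutlin-3a library was below every DMSO library, a larger share than the 29 of 60 members, and 9 of the 30 passed with the block at an adjusted p under 0.05, among them E2F2 at -1.11, CDT1 at -0.71 and CCNE1 at -0.57.

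The second comparison asked whether cells carrying oncogenic HRas differ in these genes, and the members lay evenly on both sides of 0. Of the 60 genes, 30 were lower and 30 higher in G12V than in MCF10A cells, where 50.1% of all 14376 genes tested were lower. The median log2 fold change was -0.0049 for the list and -0.0011 for all genes, and the range was from -0.99 for WEE1 to 0.76 for ESPL1, with 9 of the 60 below -0.25, where 30.7% of all genes were. By the same rule for DE, 1 of the 60 genes was called lower, against 5.95% of all genes tested, and 0 were called higher, against 5.01%. At an unadjusted p under 0.05 the same test gave 1 member lower, against 12.8% of all genes, and 1 higher, against 12.7%. The groups did not overlap in 2 members that were lower, WEE1 and HMMR, against 27.4% of all genes, and in 2 that were higher, AURKA and BIRC5, against 27.5%.

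The libraries of each cell type differed more from each other in these genes than the cell types did. MCF10A replicate 1 was above replicate 2 in 57 of the 60 genes, by a median of 0.58 on the log2 scale, where 50.5% of all genes were above. In G12V cells replicate 1 was above replicate 2 in 59 of the 60, by a median of 0.81, where 44.7% of all genes were above. The summed level was 6946 and 4908 CPM in MCF10A and 7428 and 4525 CPM in G12V cells. Across the 4 ways of setting a G12V library against an MCF10A library, the median difference was 0.07, -0.12, 0.67 and -0.74, and its sign was set by which library of each group was taken. The values of 0.07 and -0.12 came from libraries of the same number, and the fitted median with the replicate number as a block was -0.02. Leaving out 1 library without the block moved the fitted median to between -0.48 and 0.36. That omission leaves the groups unequal in replicate numbers, so the range is not a limit of detection. The smallest shift that these 4 libraries could show was not worked out.

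**Figure D4:**
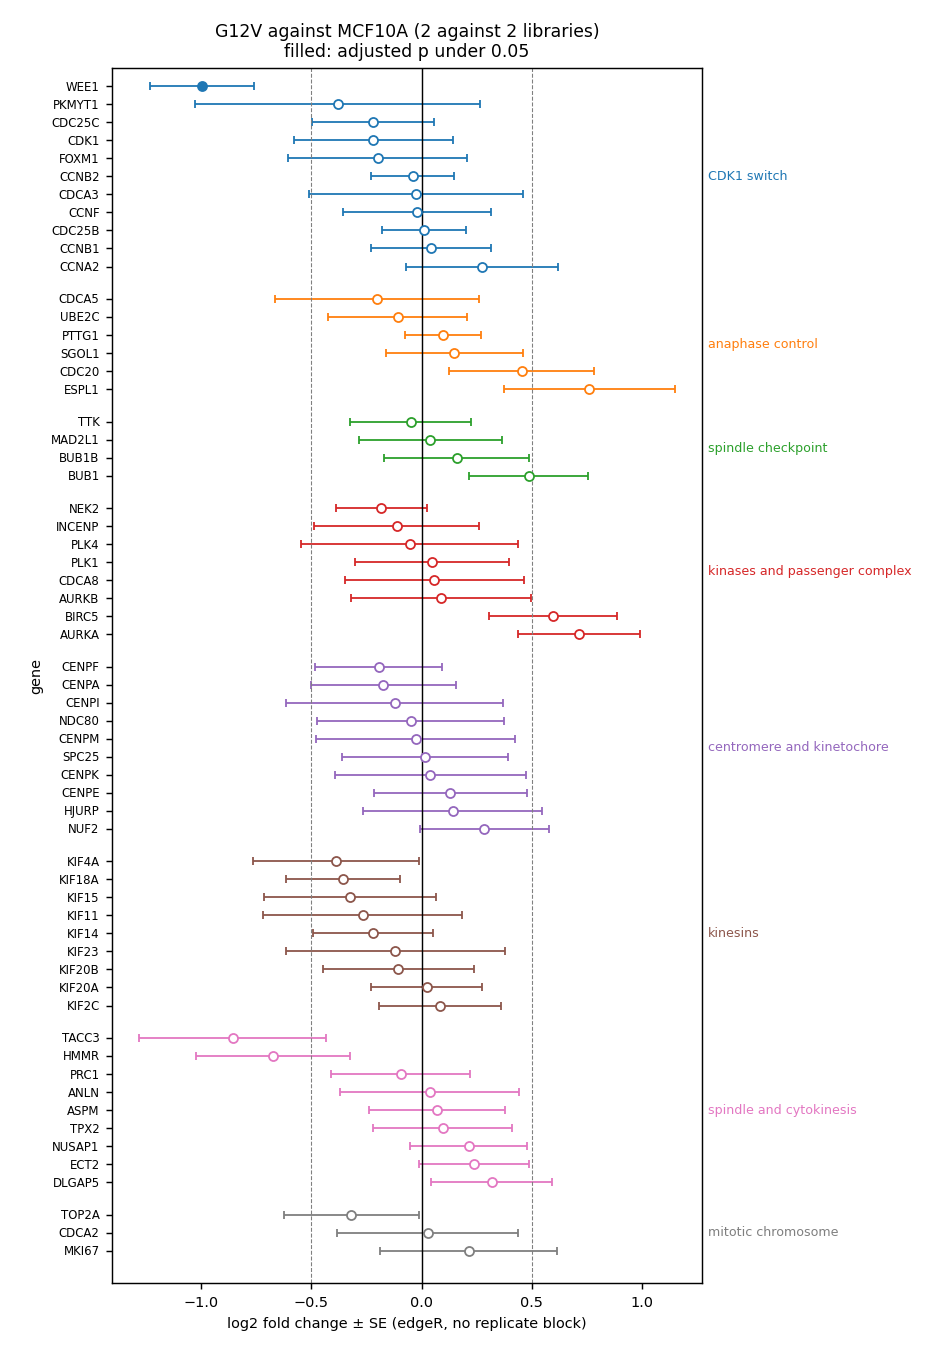
Log2 fold change of each of the 60 genes between 2 G12V and 2 MCF10A libraries (horizontal axis, points with bars of 1 SE, fit without the block), grouped and coloured by role, with a filled point for an adjusted p under 0.05 without the block and dashed lines at -0.5 and 0.5. The points spread to both sides of 0, and only WEE1, at -0.99, is filled.

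WEE1 had 52.1 and 53.4 CPM in MCF10A and 31.0 and 22.0 CPM in G12V cells. Both G12V libraries lay well below both MCF10A libraries, which differed by little. Its log2 fold change was -0.99 (SE 0.23, edgeR adjusted p = 0.0498, 0.000794 with the block), a level 49.8% lower. The call sat at the threshold: the edgeR adjusted p was 0.0501 to 0.0731 with other normalizations or filters, 0.00651 with the exact test and 0.00676 with DESeq2, and 0.0127 to 0.265 on leaving out 1 library. It was lost without MCF10A replicate 1, MCF10A replicate 2 or G12V replicate 2 and kept without G12V replicate 1.

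Among the remaining genes of the CDK1 switch, CDK1 had 127 and 77.8 CPM in MCF10A and 114 and 62.7 CPM in G12V cells, and CCNB1 had 230 and 160 CPM in MCF10A and 235 and 167 CPM in G12V cells. In both genes each group spanned nearly the whole range of the other, with the libraries numbered 1 the higher. Their log2 fold changes were -0.22 (SE 0.36) for CDK1 and 0.04 (SE 0.27) for CCNB1. CCNB2 had 71.2 and 77.5 CPM in MCF10A and 79.7 and 64.9 CPM in G12V cells, and differed by -0.04 (SE 0.19) on the log2 scale. FOXM1 had 146 and 91.3 CPM in MCF10A and 141 and 65.5 CPM in G12V cells, and differed by -0.20 (SE 0.41) on the log2 scale. PKMYT1, the other inhibitory kinase of CDK1, had 69.2 and 30.6 CPM in MCF10A and 60.2 and 16.4 CPM in G12V cells. Its libraries differed more within each cell type than between them, and its log2 fold change was -0.38 (SE 0.65, edgeR adjusted p = 0.788, 0.0407 with the block). PKMYT1 overlaps PAQR4 and FOXM1 overlaps RHNO1 on the opposite strand. CCNF at -0.02, HJURP at 0.14 and PLK1 at 0.05, among the lowest with Nutlin-3a, were not called in G12V cells. PLK1 had 180 and 119 CPM in MCF10A and 200 and 108 CPM in G12V cells.

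A few genes had larger differences that did not pass the test without the block. With the replicate number as a block, 4 of the 60 genes were called lower and 4 higher, against 14.5% and 14.4% of all genes. These untreated libraries share only a number. TACC3, which stabilizes the kinetochore fibres of the spindle, had 130 and 73.9 CPM in MCF10A and 76.7 and 36.1 CPM in G12V cells. That is a difference of -0.86 on the log2 scale (SE 0.42, edgeR adjusted p = 0.280, 0.000445 with the block). The groups overlapped, since the lower MCF10A library stood just below the higher G12V library. HMMR, a spindle-associated hyaluronan receptor, had 85.0 and 73.7 CPM in MCF10A and 67.3 and 32.4 CPM in G12V cells, without overlap. Its log2 fold change was -0.67 (SE 0.35, edgeR adjusted p = 0.302, 0.00908 with the block).

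On the other side, AURKA had 95.8 and 62.9 CPM in MCF10A and 151 and 109 CPM in G12V cells. It was higher by 0.71 on the log2 scale (SE 0.28, edgeR adjusted p = 0.177, 0.00135 with the block). Both G12V libraries were above both MCF10A libraries, as they were for BIRC5, which had 129 and 95.8 CPM in MCF10A and 210 and 130 CPM in G12V cells, at a log2 fold change of 0.60 (SE 0.29, edgeR adjusted p = 0.273). ESPL1 had 55.8 and 39.7 CPM in MCF10A and 111 and 51.0 CPM in G12V cells. The difference of 0.76 on the log2 scale (SE 0.39, edgeR adjusted p = 0.294, 0.00819 with the block) rested on G12V replicate 1, without which it was 0.09. BUB1 had 97.1 and 63.1 CPM in MCF10A and 128 and 96.0 CPM in G12V cells, and CDC20 had 190 and 115 CPM in MCF10A and 255 and 163 CPM in G12V cells. Both overlapped between the cell types, at log2 fold changes of 0.48 (SE 0.27) and 0.45 (SE 0.33). With the block BUB1 was called (edgeR adjusted p = 0.0133), while CDC20 passed the adjusted p (0.0188) but not the fold threshold.

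TOP2A had 416 and 374 CPM in MCF10A and 405 and 229 CPM in G12V cells, and MKI67 had 386 and 231 CPM in MCF10A and 476 and 240 CPM in G12V cells. Neither was called, at log2 fold changes of -0.32 (SE 0.31) and 0.21 (SE 0.40). By role, the kinesins had the lowest median, -0.22 with 7 of 9 genes below 0, and the anaphase genes the highest, 0.12 with 4 of 6 above 0. No role but the CDK1 switch held a gene called without the block. The further lists gave medians of -0.12 for the kinetochore and checkpoint genes, 0.03 for condensin, -0.06 for the anaphase-promoting complex, -0.03 for DREAM and the MuvB complexes and -0.15 for the G1/S genes, with 0 called without the block.

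Set side by side, the comparisons, which share no libraries, had no common order among the 60 genes. Of them 29 were lower in both, and 29 were lower with Nutlin-3a and higher in G12V cells. Across the genes the 2 log2 fold changes had an r of -0.0016 and a rho of -0.16 (60 genes, which are not independent replicates). WEE1 stood apart as the gene with a large negative value in both, -0.86 with Nutlin-3a and -0.99 in G12V cells. AURKA, ESPL1 and CDC20 had negative values with Nutlin-3a (-0.46, -0.47 and -0.38) and positive ones in G12V cells (0.71, 0.76 and 0.45). None of these was called in G12V cells without the block. On leaving out 1 library their G12V values fell as low as 0.44, 0.09 and 0.10. The tables were counted on different annotations, so levels are not compared across them.

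**Figure D5:**
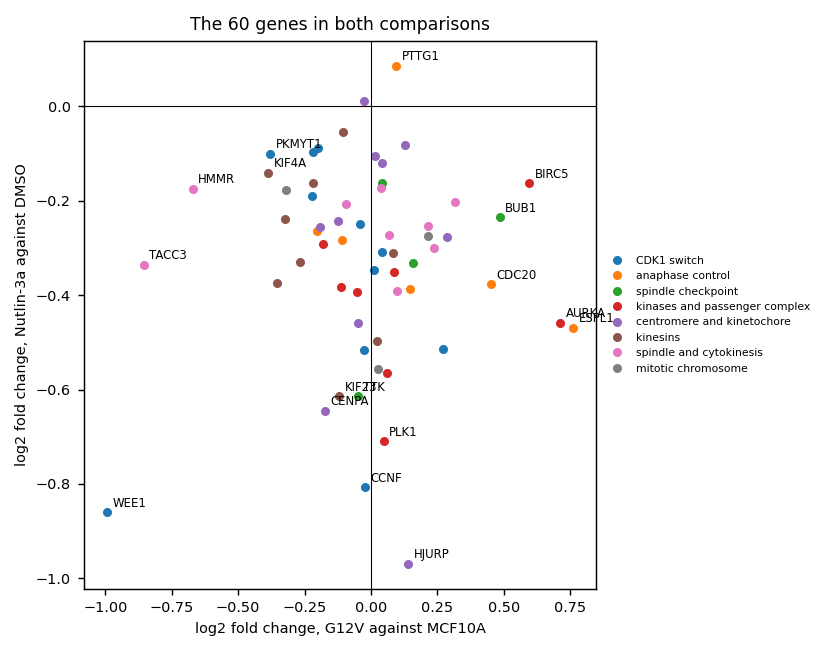
Log2 fold change of each of the 60 genes with Nutlin-3a against DMSO (vertical axis) and in G12V against MCF10A (horizontal axis), coloured by role. The points lie below 0 on the vertical axis for 58 genes and on both sides of 0 on the horizontal axis, with WEE1 alone at the lower left.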

How the data were processed

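Poly(A)-selected RNA was sequenced from the 10 libraries. The authors used TopHat2 2.1.1 on hg19 and HTSeq 0.6.0, and edgeR 3.22.5 for their own comparisons, and deposited the raw count of reads for each gene, not normalized, in one table for the untreated cells and another for the Nutlin-3a experiment. The annotation and strand setting are not given in the sources used here, and the kit as named in the labels does not mark strand. A count per gene also depends on how overlapping genes were handled, which is not stated. In both tables every column of per-sample values was used.

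The 2 comparisons were fitted separately in edgeR 4.0.16 (R 4.3.3, limma 3.58.1), by filterByExpr at its defaults, TMM normalization and the quasi-likelihood F-test, and p-values were adjusted by Benjamini-Hochberg over all genes tested. A prior count of 0.125 was used, and a standard error is the size of the log2 fold change divided by the root of the F statistic. The fits were tested on simulated data. The labels number the libraries, and the deviations of libraries from the mean of their group were correlated. The correlation was 0.62, 0.60 and 0.64 for DMSO and Nutlin-3a libraries that share a number and -0.47 to -0.19 for the others. Deviations from a group mean cancel out, so the negative values are not separate evidence. The numbers were taken to pair the libraries. This rests on the data and the shared numbers, not on a stated shared culture. No libraries were identical. The alternatives tried were the exact test of edgeR, DESeq2 1.42.0, other normalization factors, other filters, the replicate block, a larger prior count (2) and leaving out each library. The block with each replicate number left out was chosen after seeing the data.

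The members and the lists were chosen with earlier results of these data known. Given in full are the members called in a comparison by either rule with or without the block (where over 12, the 6 with the largest falls and rises), the largest and smallest log2 fold change, and CDK1, CCNB1, CCNB2, PLK1, FOXM1, TOP2A and MKI67. Promoters and motifs were read with Python 3.11.15, pandas 2.3.3 and numpy 2.4.6, and figures drawn with matplotlib 3.10.9. No test over the list as a set was made.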

Additional observations from a re-analysis of the deposited data

How the results depend on the processing

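The median log2 fold change of the 60 genes with Nutlin-3a stayed negative under every alternative run and from -0.38 to -0.22 on leaving out 1 library. The number of members called, 1 by edgeR's quasi-likelihood test, was 7 with DESeq2, 7 with the exact test, 3 with library totals alone, 9 with no filter and 12 with the replicate block, always lower, and 0 on leaving out any 1 library. In G12V cells, where 1 was called, it was 0 with relative log expression factors, upper-quartile factors, library totals alone, no filter or a filter that asks for over 1 CPM in 2 libraries, and 0 to 6 on leaving out 1 library. The causes were not tested.

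In the untreated cells the replicate block called 8 members, WEE1, TACC3, HMMR and PKMYT1 lower and AURKA, BIRC5, BUB1 and ESPL1 higher, where 14.5% and 14.4% of all genes were called in those directions. Deviations of libraries of the same number correlated at 0.49, but with 2 libraries a group they share only a number. The median of the list with the block was -0.02 in G12V cells and -0.31 with Nutlin-3a.

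Among the members given in full, those that changed sign on leaving out 1 library ranged, with Nutlin-3a, from -0.17 to 0.0024 (CDK1), -0.058 to 0.19 (PTTG1) and -0.23 to 0.052 (FOXM1). In G12V cells they ranged from -0.23 to 0.36 (CCNB1), -0.37 to 0.67 (MKI67), -0.47 to 0.42 (PLK1), -0.20 to 0.10 (CCNB2), -0.71 to 0.21 (CDK1), -0.86 to 0.25 (FOXM1), -1.61 to 0.37 (PKMYT1) and -0.79 to 0.034 (TOP2A). The smallest member count in any library was 184. How far depth or the spread between libraries set the precision was not tested.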
